A study of Homo sapiens with 2 samples.

Results

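Cytosolic ribosomal protein genes are described here in MAEL wildtype and MAEL knockout liver cancer cells. Members were the protein-coding genes of the deposited table with a gene name of RPL or RPS followed by a number, plus RPLP0, RPLP1, RPLP2 and RPSA, without genes of chromosome Y. The rule took 84 of the 58735 listed genes, 52 named for the large (60S) and 32 for the small (40S) subunit of the ribosome. Of these, 77 encode the main form of their protein and 7 are paralogues, second genes for a closely related protein. FAU, which encodes a ribosomal protein fused to a ubiquitin-like protein, RACK1 and RPL36AL fall outside the naming rule and were measured separately.

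RNA sequencing compared wildtype (MAEL WT) with knockout (MAEL KO) cells of PLC8024, also called PLC/PRF/5 or Alexander cells, an epithelial line from a human hepatocellular carcinoma (HCC). There is 1 library of each. The knockout was made with an sgRNA and Cas9, and the methods describe single clones grown from sorted cells, so the KO library stands for the line as cloned. Both were grown in the same DMEM medium with FBS, with no drug named in the labels. MAEL encodes a protein known for the silencing of transposons in germ cells.

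A ribosome joins a large subunit, which forms peptide bonds, with a small subunit, which reads the mRNA, and each ribosomal protein is present in about the same number as its partners. Most ribosomal protein mRNAs begin with a C followed by a run of pyrimidines, called the 5′ terminal oligopyrimidine (5′TOP) motif, through which mTOR and the RNA-binding protein LARP1 set their translation and stability. Many of these genes carry small nucleolar RNAs in their introns, and mutation of many of them causes Diamond-Blackfan anaemia. In the liver, as in other tissues, ribosome supply is linked to cell growth.

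The start of the transcript was read from RefSeq on GRCh38.p14 for 67 of the 84 members. The 17 members without an entry include RPS15A, RPS2, RPL23A, RPL5, RPL7, RPS20, RPL23, RPL30, RPL37, RPL8, RPL39L and RPL3L.

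A pyrimidine start was defined here as a C at the first base of a RefSeq transcript with at least 5 pyrimidines in a row from it. It was found for 47 of the 67 members (70.1%), against 5.14% of the 27305 genes in the RefSeq table and 6.07% of the other protein-coding genes in it. A C at the first base was found for 50 members (74.6%) and 18.0% of all genes. The following windows of 30 bases hold the 15 bases before and the 15 bases from the start, 5′ to 3′ on the transcribed strand, with the pyrimidine run from a C start in capitals. The first set holds the members with a pyrimidine start and the largest differences, then the 3 proteins of the P stalk and RPL11, to show how the run varies in length and letters.
RPL7A (chr9:133348203-133348232, plus strand): ccacaattccctttcCTTTCTCTCTCCTCC
RPSA (chr3:39406705-39406734, plus strand): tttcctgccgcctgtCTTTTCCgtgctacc
RPS3 (chr11:75399503-75399532, plus strand): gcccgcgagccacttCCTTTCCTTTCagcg
RPL21 (chr13:27251543-27251572, plus strand): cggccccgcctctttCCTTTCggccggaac
RPLP0 (chr12:120201097-120201126, minus strand): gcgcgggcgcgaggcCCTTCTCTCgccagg
RPLP1 (chr15:69452803-69452832, plus strand): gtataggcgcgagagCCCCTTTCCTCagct
RPLP2 (chr11:809952-809981, plus strand): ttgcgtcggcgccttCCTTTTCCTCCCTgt
RPL11 (chr1:23691791-23691820, plus strand): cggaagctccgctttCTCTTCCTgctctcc

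The second set holds members whose listed start is not a C with such a run. RPS26, RPS29 and RPS4X were among the members with the largest differences, RPL9, RPS27L and RPL10L among the lowest.
RPS26 (chr12:56041903-56041932, plus strand): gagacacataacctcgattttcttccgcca
RPS29 (chr14:49598696-49598725, minus strand): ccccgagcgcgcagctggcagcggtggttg
RPS4X (chrX:72277234-72277263, minus strand): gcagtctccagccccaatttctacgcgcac
RPL9 (chr4:39458908-39458937, minus strand): gtacgtaatgacgacagacgttctttcttt
RPS27L (chr15:63157463-63157492, minus strand): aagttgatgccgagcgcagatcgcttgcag
RPL10L (chr14:46651767-46651796, minus strand): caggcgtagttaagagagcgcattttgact

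In the wider window of 250 bases before and 50 after the start, 3 short motifs were searched on both strands. CCGGAAG was found for 24 members (35.8%) and 12.2% of all genes, AAGATGGC for 7 (10.4%) and 3.52%, and CACGTG for 5 (7.46%) and 8.77%. Among the other protein-coding genes the shares were 16.7%, 4.76% and 11.0%, in the same order. CCGGAAG and AAGATGGC are words of the binding motifs of ETS factors and YY1, and CACGTG is the E-box bound by MYC. The MYC mRNA had 3014 counts in the WT library and 3943 in the KO library, a log2 fold change of 0.60. A match is a description of letters and not a site in use.

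The libraries hold 19904136 (WT) and 20833332 (KO) counts. MAEL had 1 count in WT and 0 in KO, so the labels could not be checked by the targeted transcript. Log2 fold changes are of KO over WT, from counts normalized by TMM with 1 added, given for the 17887 genes that reached 10 counts in WT, in KO or in both. Every difference given here lacks a replicate check, and 95% intervals are exact Clopper-Pearson intervals that cover counting error only. Liver markers differed between the libraries, with ALB at 59 and 8550 counts, APOA1 at 419 and 4400, TTR at 20 and 155, SERPINA1 at 78162 and 232891, FGB at 30817 and 71023, APOB at 80091 and 135805 and TF at 65436 and 72635. All 7 had more counts in KO. The epithelial markers KRT8, KRT18 and CDH1 were present in both. Of 5 markers of other cells, PTPRC, COL1A2 and VWF had at most 3 counts, COL1A1 had 92 and 11, and PECAM1 had 348 and 392. The part of these differences in the values of the ribosomal protein genes was not tested. In bulk RNA, a change in the share of cells and a change in RNA per cell cannot be told apart.

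Ribosomal protein transcripts took a larger share of the KO library. The 84 members held 835521 counts or 4.20% of the WT library (95% interval 4.19% to 4.21%) and 1312310 counts or 6.30% of the KO library (6.29% to 6.31%), a ratio of 1.50. Members of the large subunit went from 2.67% to 3.88%, a ratio of 1.45, and those of the small subunit from 1.53% to 2.42%, a ratio of 1.59. A share does not depend on the scaling between the libraries. As a comparison, the mitochondrial ribosomal protein genes (MRPL and MRPS), which build the separate ribosome of mitochondria, went from 0.423% to 0.465%, a ratio of 1.10. EEF1A1, the elongation factor that brings aminoacyl-tRNA to the ribosome, went from 0.777% to 0.835%.

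All 84 members passed the filter on low counts, and 81 had a higher normalized level in KO. Of all tested genes, 48.0% were above 0. The median log2 fold change of the members was 0.85, a 1.80-fold higher level, against -0.04 over all tested genes. For 80 members the whole counting interval lay above 0, and for 1 member it lay below. Of the 17887 tested genes, 6220 had an interval above 0 and 6207 one below. Of 7409 other protein-coding genes with at least 1000 counts, 3950 had it above 0 and 2348 below. A log2 fold change above 1 was seen for 23 members, beside 10.2% of all tested genes, and 1 below -1 for 1 member, beside 16.5%. No member passed 2 in either direction, the fold change cutoff of the study, which 7.80% of all tested genes passed. The study paired this cutoff with one on the adjusted p value, which was not applied here.

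The members are abundant, so they were also read against protein-coding genes with at least 1000 counts in sum. Of these 7487 genes, members included, 61.5% were above 0 and 8.98% above 1. The 7409 of them that are no members had a median of 0.16, the 529 with at least 10000 counts a median of 0.37, and the 473 with a transcript of up to 1000 bases a median of 0.32. The median of the members was above each of these. The difference between the median of the members and that of the other well-counted genes was 0.69 under TMM, DESeq2, upper-quartile and total-count scaling. A scaling factor shifts the values of all genes nearly alike, so this equality follows from the method and is no separate check.

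Scaling moved the level of all values together. With total counts in place of TMM, the median over all tested genes was -0.31 instead of -0.04, and that of the members 0.57 instead of 0.85. Relative to all tested genes the members stayed 0.88 to 0.89 higher under the 4 scalings, which follows from such a common shift. With total counts 80 members were above 0, beside 34.6% of all tested genes. Above 1 there were 6 members (7.14%), beside 6.56% of all tested genes, and 2 members were below -1.

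**Figure D1:**
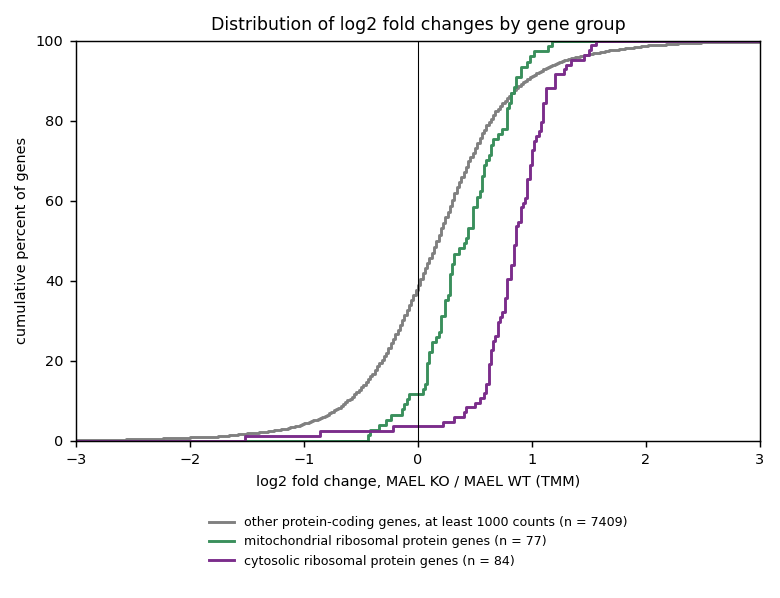
Cumulative percent of genes (y axis) at or below each log2 fold change of KO over WT (x axis, TMM) for the 84 cytosolic ribosomal protein genes, 77 mitochondrial ribosomal protein genes and 7409 other protein-coding genes with at least 1000 counts. The curve of the cytosolic genes lies to the right of the other curves over most of its length, with medians of 0.85, 0.40 and 0.16.

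The members lay close together. Their interquartile range was 0.35 (0.66 to 1.01), beside 0.76 for the other well-counted protein-coding genes and 1.12 for all tested genes. It was 0.50 for the mitochondrial ribosomal protein genes and 0.35 for the 11 chaperones and import factors described below. The plot of cumulative percent shows the narrow range of the members as the steeper rise of their curve. The levels of the members kept nearly the same order in both libraries, with a Pearson r of 0.988 and a Spearman rho of 0.971 between their log2 normalized counts over 84 genes of the same pair of libraries. The log2 fold change had a rho of -0.09 with the WT level and of -0.15 with the length of the principal transcript over the same 84 genes. These correlations are across genes, which are not independent replicates. A wide range of levels by itself gives a high correlation between the libraries, and none was computed for other genes.

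**Figure D2:**
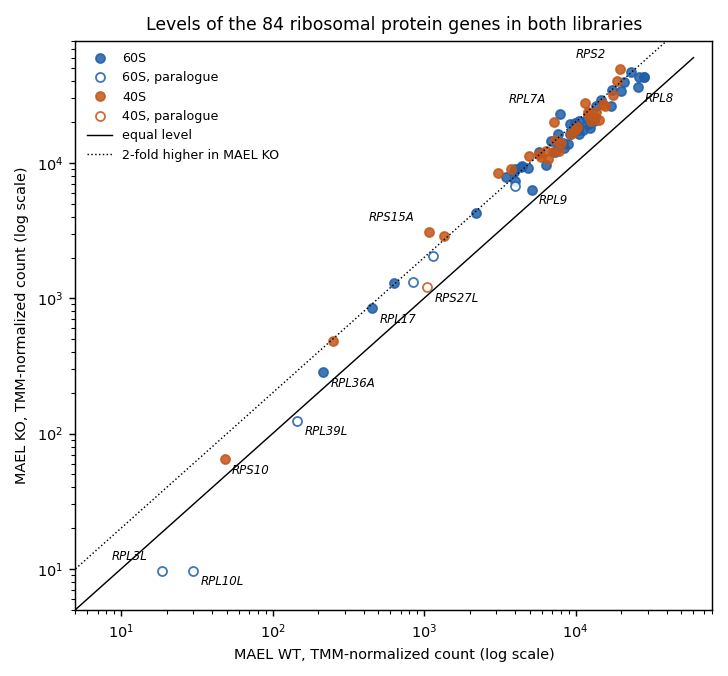
TMM-normalized counts of the 84 members in MAEL WT (x axis) and MAEL KO (y axis), both on log scales, with 60S genes in blue, 40S genes in orange and paralogues as open circles; the solid line marks equal levels and the dotted line a 2-fold higher level in KO. Most points lie between the lines or near the dotted one, and RPL10L, RPL3L and RPL39L lie below the line of equal levels.

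Among the 46 main genes of the large subunit all were above 0, beside 61.5% of well-counted protein-coding genes, with a median of 0.86. RPL7A, a protein of the large subunit whose gene lies on chromosome 9 of GRCh38 (133348214 to 133351426, plus strand) and holds 4 small nucleolar RNA genes, had 8504 counts in WT and 21489 in KO. Its log2 fold change of 1.55 (1.51 to 1.58) was the highest of all members. RPL21 followed with 4251 and 8396 counts (1.19) and RPL34 with 3723 and 7301 (1.18). Of the 46 genes, 13 (28.3%) were above 1 with TMM, beside 8.98% of well-counted protein-coding genes. With total counts only 6 of all 84 members (7.14%) were above 1, beside 6.56% of all tested genes.

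The P stalk is the flexible arm of the large subunit that recruits the GTPases of translation, and it carries several copies of RPLP1 and RPLP2 on RPLP0. RPLP0 had 24752 counts in WT and 43410 in KO (1.02), RPLP1 22550 and 36828 (0.92), and RPLP2 6129 and 11126 (1.07). Their joint share of the library went from 0.268% to 0.439%, and all 3 counting intervals lay above 0. RPL5 and RPL11 join the 5S rRNA in a particle that, outside the ribosome, binds the ubiquitin ligase MDM2. RPL5 had 18533 and 32051 counts (1.00) and RPL11 had 7404 and 13403 (1.07), so the 2 partners differed by less than 0.1 on the log2 scale.

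RPL3 and RPL4 are large core proteins, the first near the peptidyl transferase centre and the second in the wall of the exit tunnel. They had the highest WT counts of all members with 30446 and 30507, and 39965 and 39863 in KO, and both had a log2 fold change of 0.60. RPL10, which is added late in the assembly of the subunit, had 21238 and 31342 counts (0.77), and RPL39, a very small protein of the exit tunnel, had 5178 and 8474 (0.92). At the low end were RPL9 with 5496 and 5850 counts (0.30, interval 0.25 to 0.35), RPL36A with 231 and 263 (0.40, 0.14 to 0.66), RPL8 with 27679 and 33573 (0.49) and RPL15 with 13387 and 16678 (0.53). These 4 were still higher in KO in normalized counts but lay below the lower quartile of the members.

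Among the 31 main genes of the small subunit all were above 0 as well, with a median of 0.89. With TMM 10 (32.3%) were above 1, beside 8.98% of well-counted protein-coding genes. RPSA, which is also known as a laminin receptor, had 7697 counts in WT and 18617 in KO (1.48, 1.45 to 1.52). RPS26, which lies by the path of the mRNA, had 3301 and 7770 (1.45, 1.39 to 1.50), and RPS2, by the mRNA entry, had 21140 and 45723 (1.32, 1.30 to 1.35). RPS3, which also lines the mRNA entry, had 12327 and 25923 (1.28), and RPS29 had 4019 and 8333 (1.26). Of the 6 members with the highest values 5 were of the small subunit, and the remaining one was RPL7A.

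RPS6, the substrate of S6 kinase, had 8546 and 13092 counts (0.83), and RPS27A, which is made as a fusion with ubiquitin, had 10655 and 16278 (0.82). RPS18 had 18915 and 29463 (0.85), and RPS14 had 16812 and 24560 (0.76). The lowest main gene of the small subunit was RPS10 with 52 and 60 counts (0.41, -0.14 to 0.98), whose interval includes 0. The genes measured outside the naming rule had values in the same range, at 0.53 for FAU (3636 and 4534 counts), 0.93 for RACK1 (17825 and 29449) and 0.95 for RPL36AL (1981 and 3306).

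**Figure D3:**
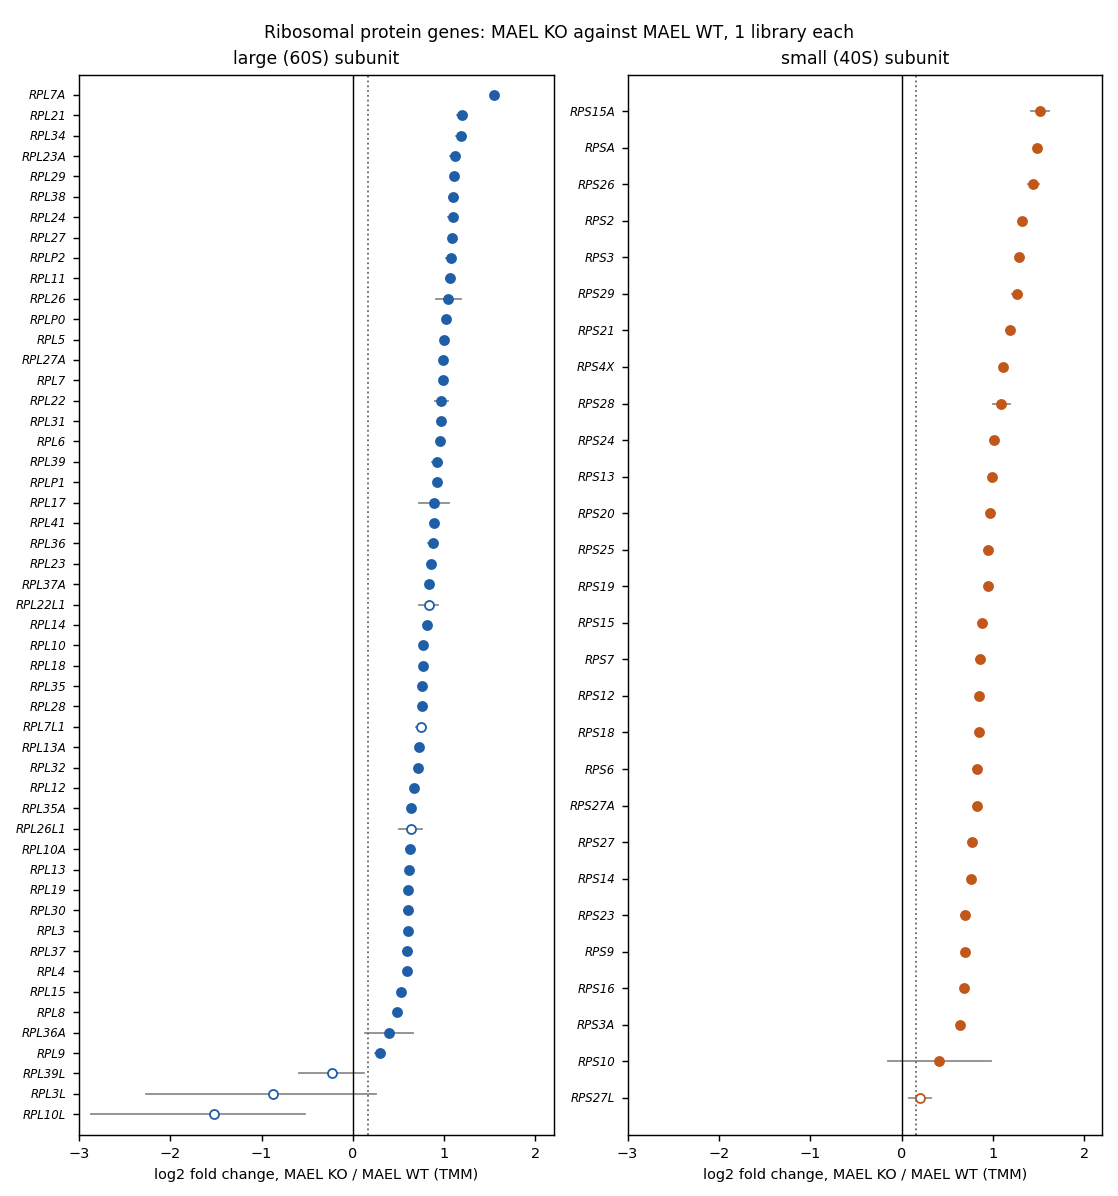
Log2 fold change of KO over WT (x axis, TMM) of 79 members, with large subunit genes on the left and small subunit genes on the right, ordered by value, with grey bars for the 95% counting interval (mostly shorter than the symbol) and open circles for paralogues. The dotted line marks 0.16, the median of the other well-counted protein-coding genes, RPL9 and RPS27L are the genes nearest to it, and RPL39L, RPL3L and RPL10L on the left are below 0.

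The 3 members that were lower in KO were all paralogues. RPL10L, a copy of RPL10 without introns known from male germ cells, had 32 counts in WT and 9 in KO (-1.53, interval -2.87 to -0.52). RPL3L, the form of RPL3 found in heart and skeletal muscle, had 20 and 9 (-0.88, -2.26 to 0.26), and RPL39L, known from germ cells, had 156 and 115 (-0.23, -0.59 to 0.13). The intervals of RPL3L and RPL39L include 0. RPS27L had 1122 and 1119 counts (0.21, 0.09 to 0.33), and with total counts in place of TMM it was at -0.07.

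The other paralogues were higher in KO. RPL22L1 had 1231 and 1892 counts (0.83), RPL7L1, which acts in ribosome assembly, 4294 and 6233 (0.75), and RPL26L1 906 and 1214 (0.63). Over the 7 paralogues the median was 0.21, beside 0.88 for the 77 main genes, and none was above 1. In each pair the parent was above its paralogue, with RPL39 at 0.92 against RPL39L at -0.23, RPL10 at 0.77 against RPL10L at -1.53, RPL3 at 0.60 against RPL3L at -0.88, RPS27 at 0.77 against RPS27L at 0.21, RPL22 at 0.97 against RPL22L1 at 0.83, RPL26 at 1.04 against RPL26L1 at 0.63 and RPL7 at 0.98 against RPL7L1 at 0.75. These differences were not tested.

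Reads from a parent and a near-identical paralogue can be shared, so the coding sequences of the 7 pairs were compared. RPL39 and RPL39L were the closest, with 94.8% identical bases over 153 and a longest identical run of 44 bases, and RPL10 and RPL10L followed with 89.3% and a run of 50. The other pairs ranged from 57.0% for RPL7 and RPL7L1 to 84.1% for RPL26 and RPL26L1, with runs of at most 26 bases. The values of RPL39L and RPL10L are therefore the most uncertain of the paralogues in this respect. The coding sequences of the closest pair, from GENCODE 29 on GRCh38, are given with the 8 differing bases in capitals. RPL39 lies on chromosome X (119786504 to 119791643, minus strand) and RPL39L on chromosome 3 (187120948 to 187180908, minus strand).
RPL39: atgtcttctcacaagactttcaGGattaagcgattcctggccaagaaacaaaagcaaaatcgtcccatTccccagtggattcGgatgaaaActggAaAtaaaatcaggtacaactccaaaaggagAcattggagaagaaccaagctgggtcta
RPL39L: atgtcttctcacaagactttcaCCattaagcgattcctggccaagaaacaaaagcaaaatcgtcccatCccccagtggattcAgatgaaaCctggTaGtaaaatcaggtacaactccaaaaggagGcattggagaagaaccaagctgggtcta

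Members with a pyrimidine start had a median log2 fold change of 0.88 (47 of 47 above 0), and the 20 with a listed start but no such run a median of 0.73 (19 of 20 above 0, the exception being RPL10L). The 20 include the paralogues RPL10L (-1.53), RPS27L (0.21), RPL26L1 (0.63) and RPL7L1 (0.75). Among the 47 the only paralogue is RPL22L1 (0.83). The groups thus differ in paralogue content as well as in start, and the part of each in the gap was not tested. The grouping also rests on the base that RefSeq lists first. In the windows of RPL9 and RPS26, for example, a pyrimidine run lies a few bases after the listed start. RPS26 and RPS29, whose listed starts are not a C, had 1.45 and 1.26, and RPL36A, with a pyrimidine start, had 0.40. Outside the members, 460 well-counted protein-coding genes with a pyrimidine start had a median of 0.22, and 5602 with another start had 0.16.

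**Figure D4:**
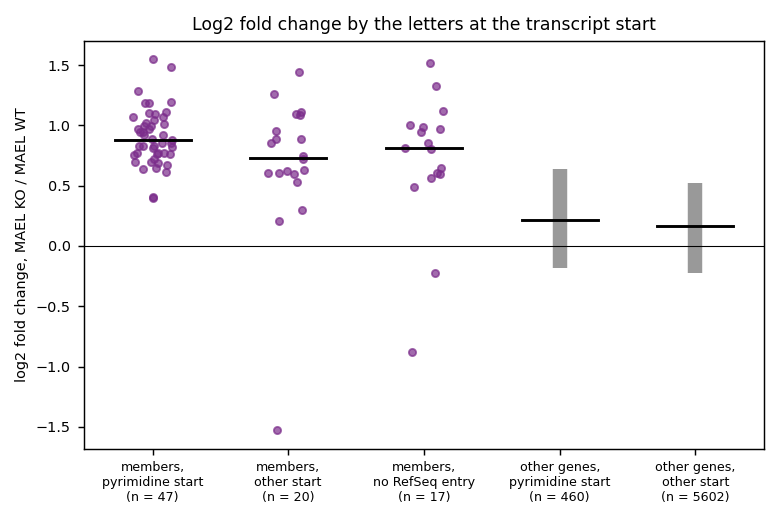
Log2 fold change of KO over WT (y axis, TMM) of the members by the letters at their RefSeq start (points, 1 per gene, with a line at the median), and the median (line) and interquartile range (grey bar) of other protein-coding genes with at least 1000 counts. The 3 groups of members lie mostly between 0.5 and 1.5, and both groups of other genes have medians near 0.2.

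Members that host small nucleolar RNAs had nearly the same median as the others. The 28 members with such a gene inside them had a median of 0.85 and were all above 0, and the other 56 had a median of 0.84. Members lie on 21 chromosomes, and on 20 of them their median was above that of the other well-counted genes. The exception was chromosome 14, which holds RPL10L (-1.53) and RPS29 (1.26). Of the 84 members, 81 were above the median of the other genes of their own chromosome, by 0.71 in the median.

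The counted levels of the main genes spanned a wide range. Per kilobase of the principal transcript, the TMM-normalized count ran from 82.4 (RPS10) to 28763 (RPS18) in WT, with a median of 12562, and from 110.05 to 51836, for the same genes, in KO, with a median of 23609. By deposited FPKM, which divides by the full listed length of a gene, RPS12 was highest with 971 in WT and 1750 in KO, then RPL13A with 540 and 889, RPL8 with 586 and 820, RPS2 with 401 and 999, and RPL41 with 450 and 831. The lowest were RPL3L with 0.332 and 0.172, RPS10 with 1.01 and 1.34, and RPL10L with 1.80 and 0.585.

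Several of the low main genes share exons with another annotated gene. For 7 members over 25% of the principal transcript lies in exons of other genes on the same strand, among them RPL17 (91.0%, RPL17-C18orf32), RPS10 (84.0%, RPS10-NUDT3), RPL36A (77.6%, RPL36A-HNRNPH2), RPL26 (65.3%), RPS15A (41.5%, AC138811.2) and RPL18 (26.4%). RPL17 had 487 and 781 counts, RPL26 676 and 1206, and RPS15A 1154 and 2851. How reads over shared exons were counted is not stated, so the levels of these genes are uncertain, including that of RPS15A, the second highest of all differences at 1.51. The median of the 7 was 0.89, and that of the other 77 members was 0.85. Without the 7, the level per kilobase of the other 70 main genes spanned 34.9-fold in WT, in place of 349-fold.

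**Figure D5:**
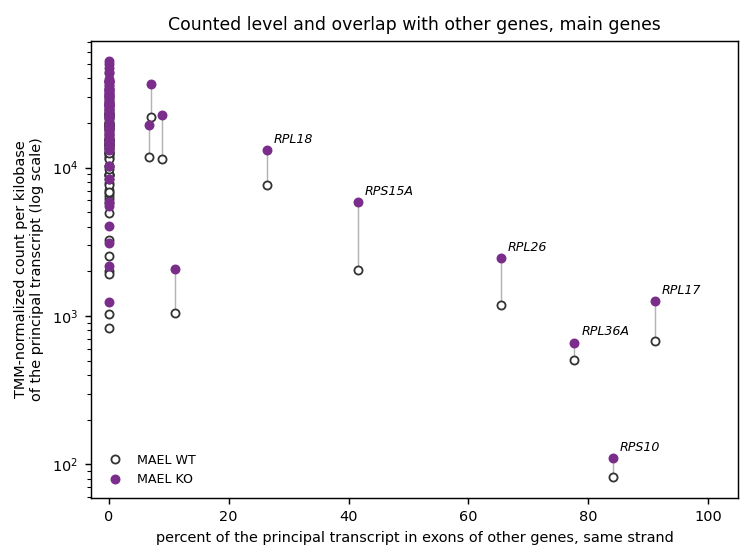
TMM-normalized count per kilobase of the principal transcript (y axis, log scale) of 76 main genes in MAEL WT (open circles) and MAEL KO (filled circles), against the percent of that transcript in exons of other genes on the same strand (x axis); grey lines join the 2 libraries for genes over 5%. The 4 genes with over 60% overlap lie low, and each of them is higher in KO.

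Ribosomal protein genes have many processed pseudogenes, copies made from the mRNA. The table lists 1144 pseudogenes named after a member, which held 35443 counts (0.178%) in WT and 58705 (0.282%) in KO. Of the 96 with at least 10 counts in a library, 66 were above 0 and 30 below, with a median of 0.62. Of all tested genes, 48.0% were above 0. The largest were RPS2P5 with 6215 and 12727 counts (1.24), RPS28P7 with 3472 and 7160 (1.25) and RPL9P9 with 2516 and 3613 (0.73). Reads of a parent and of its pseudogenes cannot be told apart with certainty in these counts.

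Pseudogenes held the largest shares for RPS28, RPS10 and RPL9. Those of RPS28 held 70.4% of the counts of parent and pseudogenes together in WT and 72.7% in KO, those of RPS10 58.7% and 62.7%, and those of RPL9 32.0% and 38.6%. With the pseudogene counts added, RPS28 moved from 1.09 to 1.21, RPS10 from 0.41 to 0.56 and RPL9 from 0.30 to 0.45. RPS2 moved from 1.32 to 1.31 and RPSA stayed at 1.48. Over the 31 members whose pseudogenes held at least 100 counts, the pseudogenes of 28 were above 0, beside 48.0% of all tested genes. Since reads of parents and pseudogenes can be shared, this is no separate check of the parents.

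The 20 members on the list of Diamond-Blackfan anaemia genes were all above 0, as were all 77 main genes, and their median was 0.97, beside 0.88 for the main genes. With TMM 9 of them (45%) were above 1, beside 29.9% of the main genes and 10.2% of all tested genes. With total counts 2 (10%) were above 1, beside 7.14% of the members and 6.56% of all tested genes. They include RPS19, the gene most often mutated in this disease, with 12925 and 21465 counts (0.94), RPS24 with 6188 and 10768 (1.01) and RPL35A with 12038 and 16163 (0.64). Highest on the list were RPS15A, RPS26 and RPS29, and lowest RPS10, RPL15 and RPL35A.

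Mitochondrial ribosomal protein genes had a lower median than the cytosolic ones. Of 77 tested, 68 (88.3%) were above 0 and 9 below, beside 61.5% of well-counted protein-coding genes above 0, and their median was 0.40. With total counts 46 (59.7%) were above 0, beside 42.3% of well-counted genes, and the median was 0.13. With TMM 3 (3.90%, beside 8.98%) were above 1, namely MRPS27 (1.17), MRPS2 (1.13) and MRPL16 (1.02). MRPL55 was lowest at -0.45.

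Other mRNAs known to carry a 5′TOP motif include translation factors. All 14 tested were above 0, beside 61.5% of well-counted protein-coding genes, with a median of 0.76, beside 0.16. With TMM 3 (21.4%, beside 8.98%) were above 1: HNRNPA1, a splicing and transport protein (9328 and 28099 counts, 1.80), NAP1L1, a histone chaperone (3659 and 7978, 1.33), and EEF1B2, a subunit of the exchange factor of EEF1A1 (3469 and 6668, 1.15). Lowest were EEF1D (0.29), EEF1A1 (154640 and 173982, 0.38) and TPT1 (0.40). With total counts all 14 were still above 0, with a median of 0.49, but EEF1D was at 0.0099 and EEF1A1 at 0.10. EEF1G is listed at 0 in both libraries and was not tested.

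Genes of the mTOR and LARP1 route went in both directions. Of 15 tested, 7 (46.7%) were above 0, beside 48.0% of all tested genes and 61.5% of well-counted protein-coding genes. Their median was -0.09, beside -0.04 for all tested genes and 0.16 for the other well-counted genes. Highest were EIF4A1, the helicase of the cap complex (184 and 365 counts, 1.19), EIF4EBP2 (2005 and 3457, 1.00) and EIF4E, the cap-binding protein (788 and 1302, 0.93). Overlap with exons of other genes was read for the members only, so its part in the low counts of EIF4A1 was not tested. LARP1 had 7457 and 10565 counts (0.71), and MTOR 3822 and 2970 (-0.15). Lowest was EIF4EBP1, a repressor of EIF4E, with 6685 and 1970 counts (-1.55), then MLST8 (-0.46) and TSC2 (-0.46).

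MDM2, the ligase that free RPL5 and RPL11 bind, had 1050 and 1751 counts (0.95). Its relative MDM4 had 761 and 498 (-0.40), and the cell cycle inhibitor CDKN1A had 522 and 244 (-0.88). Of these genes MDM2 was higher and MDM4 and CDKN1A lower in KO.

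Chaperones and import factors that bring ribosomal proteins to the assembly sites were all above 0 (11 of 11), beside 61.5% of well-counted protein-coding genes, with a median of 0.62, beside 0.16. With total counts 10 were above 0, beside 42.3%, with a median of 0.35. NAP1L1 (1.33), IPO5, an importin (7477 and 15300 counts, 1.24), and LTV1, an assembly factor of the small subunit (861 and 1507, 1.02), were highest. TSR2, the chaperone of RPS26, had 1374 and 1578 counts (0.41), and PDCD2, the chaperone of RPS2, 1928 and 1861 (0.16, and -0.12 with total counts). PDCD2 and RPS2, partners in the cell, thus had values of 0.16 and 1.32, while TSR2 and RPS26 had 0.41 and 1.45. The 8 genes of ribosome rescue and quality control had a median of 0.16, equal to that of the other well-counted genes. With TMM 7 of them (87.5%) were above 0, beside 61.5% of well-counted protein-coding genes. With total counts 2 (25%) were above 0, beside 42.3%, namely ASCC3 (0.67 with TMM) and ABCE1, the recycling factor (0.63 with TMM). EDF1, which binds collided ribosomes, was lowest with 5975 and 2675 counts (-0.95).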

How the data were processed

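RNA of 1 MAEL WT and 1 MAEL KO sample of PLC8024 cells was sequenced on a HiSeq platform. The authors deposited whole-number read counts per gene, without normalization, and FPKM values, which divide the counts by the listed gene length and a library size that differs from the total counts. The submitters' processing notes name HISAT2 2.0.5, featureCounts 1.5.0-p3 and hg19, while the coordinates in the deposited tables are GRCh38 and those of all 84 members equal GENCODE 29. The handling of strand and of reads with several matches is not given in the sources used here.

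Counts were normalized by TMM (edgeR 4.0.16, R 4.3.3; factors 1.10 for WT and 0.909 for KO), and DESeq2 1.42.0 gave size factors as an alternative. Fold changes and intervals were obtained with SciPy 1.17.1, NumPy 2.4.6 and pandas 2.3.3 (Python 3.11.15), sequences were read with Biopython 1.88, and plots used matplotlib 3.10.9. No test was run and no p-value is given, since there is 1 library per condition. Genes named are MAEL, the 6 members at each end among those with at least 100 counts, the 5 highest and 3 lowest by FPKM, the short lists in full, and up to 3 at each end of other lists; MYC, MTOR, LARP1, RPL21, RPL34, RPL3, RPL4, RPL10, RPL39, RPS4X, RPS6, RPS14, RPS18, RPS19, RPS24, RPS27A, the other parents of paralogues and members that share exons or counts with other genes were added for their role after their values were seen. Some genes that this rule covers are left out of the text and plots. The members and lists were chosen with earlier results of these data known. Normalization and fold changes were tested on simulated counts in which most genes were left unchanged. In the real libraries 10.2% of all tested genes were above 1 and 16.5% below -1. The simulation therefore does not check TMM under such broad differences. Alternatives were other scalings, added counts, filters, denominators, the FPKM ratio and changes of membership.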

Additional observations from a re-analysis of the deposited data

How the results depend on the processing

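The median log2 fold change of the members, 0.85, lay between 0.81 and 0.88 in 9 of 11 alternatives. Some of the 9 could hardly move it. Dropping the count filter kept the same members, the added counts are small beside most member counts, and the FPKM library sizes are close to those of TMM. The median was 0.57 with total counts and 0.68 after centring on well-counted protein-coding genes. Of 3 further alternatives, chosen after seeing the data, subtracting chromosome medians gave 0.71, and both keeping members with at least 1000 counts and adding FAU, RACK1 and RPL36AL gave 0.85. A version of the last with a further gene is not reported here. Members above 1 went from 23 to 6 with total counts and 10 with centring. Members below 0 went from 3 to 1 among those with at least 100 counts and to 0 without paralogues. Members below -1 went from 1 to 2 with total counts and with centring, and to 0 with at least 100 counts or without paralogues. The share of the WT and KO libraries was 4.51% and 6.77% of nuclear protein-coding counts, 4.32% and 6.48% with FAU, RACK1 and RPL36AL, and 4.38% and 6.58% with pseudogenes. Of 567 values of 57 named genes under alternatives, 436 stayed within the counting interval, 123 moved and 8 changed sign. With total counts these were HBS1L (-0.055), LTN1 (-0.13), PDCD2 (-0.12), RPS27L (-0.070) and ZNF598 (-0.22), and with centring LTN1 (-0.025), PDCD2 (-0.0090) and ZNF598 (-0.11). No paired analysis was possible because there is 1 library per condition, and for the same reason no replicate could be left out. Values of members with under 100 counts are limited by depth.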
